A study of Mus musculus with 18 samples.

Results

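The 41 genes described here build the contacts, the cytoskeleton and the polarity of epithelial cells. They were chosen by name, with earlier results of these data known, as a list of adherens junction, tight junction, desmosome, keratin, polarity and surface protease genes. All 41 had a row in both count tables, where symbols are written in capitals (CDH1, EPCAM, KRT8 and so on). The count tables hold 24360 rows each and share 24333 gene symbols. By role, 3 were assigned to the adherens junction (with Epcam), 12 to the tight junction, 9 to desmosomes and the cornified envelope, 6 to the keratins, 7 to polarity and apical trafficking, and 4 to membrane-bound proteases and their inhibitors.

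Epithelial cells are held together by adherens junctions built on E-cadherin, sealed by tight junctions built on claudins and occludin, and braced by desmosomes that anchor keratin filaments. Polarity proteins keep the apical and basolateral sides apart. Cells that undergo an epithelial-mesenchymal transition lose these structures, and the transcription factors of the ZEB and SNAI families are known for binding E-box sequences in the promoters of several of these genes.

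RNA-seq was performed on 168FARN and 67NR cells, a pair of mouse mammary tumour lines described as non-metastatic, each as WT, Kmt2c KO and Kmt2d KO, with 3 replicates per group and 18 libraries in all. Kmt2c and Kmt2d encode H3K4 methyltransferases. The KO groups are sorted pools of cells that received Cas9 and sgRNAs against exon 1, not single clones, the 168FARN WT cells carry a control sgRNA, and the 67NR WT cells are named WT only. The labels name no treatment. The libraries of a group were collected at different times, so p-values measure the spread between collections of the same pool. The number of reads counted on genes lay between 14359760 and 43427382 per library in 168FARN and between 40951775 and 79251530 in 67NR.

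Levels are given as CPM, counts scaled for library size with TMM factors on 1 scale over the 18 libraries, with values listed in the order of replicates 1, 2 and 3, and levels of different genes are compared only as RPKM, which also divides by exon length. Kmt2c and Kmt2d RNA does not check the knockouts, since small edits in exon 1 can leave the transcript to be counted. Kmt2c stood at 55.7 to 64.7 CPM in 67NR WT and at 82.9 to 92.2 CPM in 67NR Kmt2c KO cells, with a log2 fold change of 0.63 ± 0.14 (edgeR, adjusted p = 0.0067), and it was also called higher in 67NR Kmt2d KO cells (0.80 ± 0.14, adjusted p = 0.0031). Kmt2d stood at 84.7 to 114 CPM in 67NR WT and 91 to 141 CPM in its own knockout. In 168FARN the ranges of WT and the matching KO overlapped for both genes. Rn45s, a ribosomal RNA precursor, took 28.7% of the reads of 67NR Kmt2d KO replicate 3 and at most 4.96% in the other libraries. Leaving Rn45s out changed no count of called genes of the module.

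Calls come from edgeR's quasi-likelihood test with genotype as the only factor, and required both a Benjamini-Hochberg adjusted p under 0.1 over all genes tested and a log2 change larger than 0.6 in size. Of the 41 genes, 39 passed the filter on low counts in 67NR (Cdh3 and Krt5 did not) and 13 passed it in 168FARN.

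**Figure D1:**
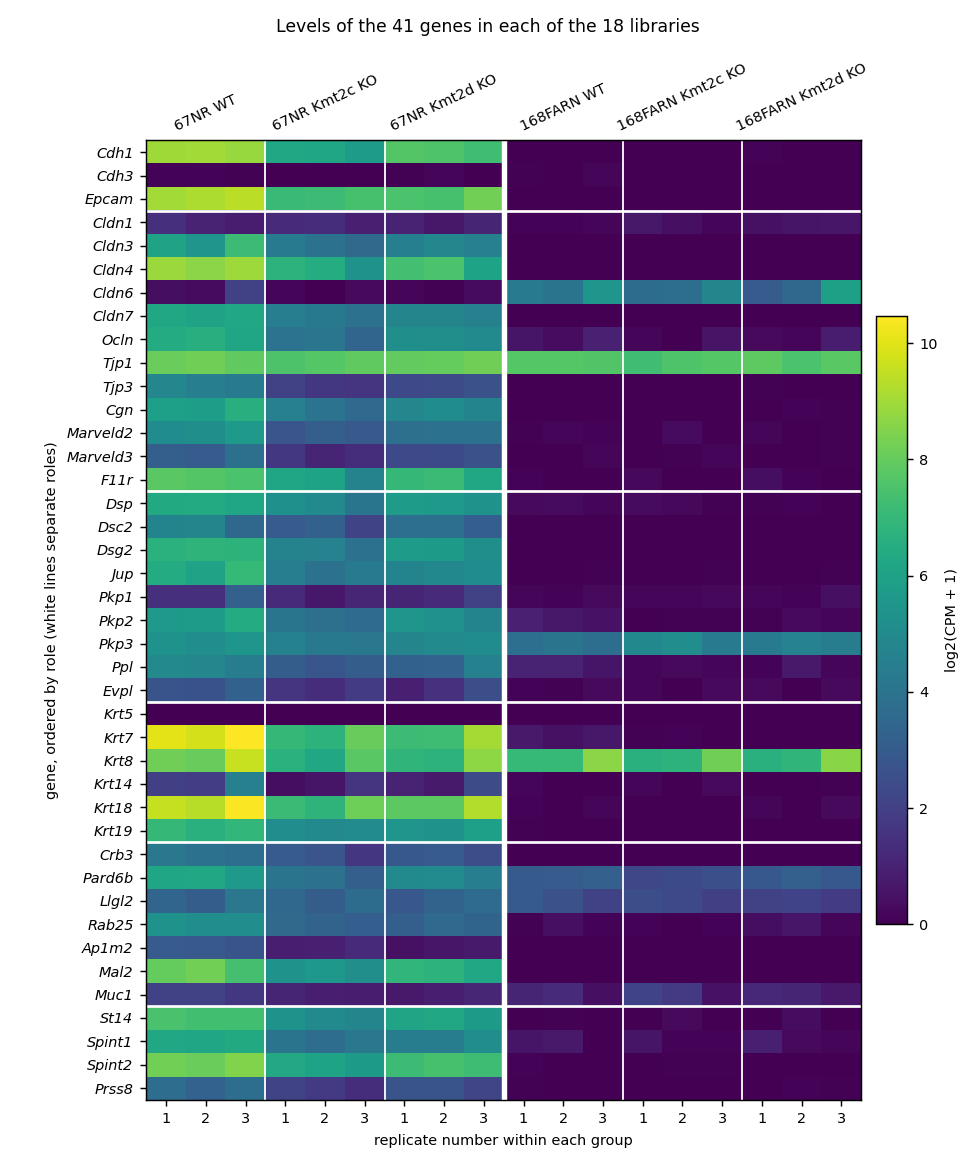
Heat map of log2(CPM + 1) for the 41 genes (rows, in 6 blocks by role) in the 18 libraries (columns, replicates 1 to 3 within each of the 6 groups). The 67NR libraries are on the left with the highest levels in WT, and most rows are at or near 0 in the 168FARN libraries on the right, where Tjp1, Krt8, Cldn6 and Pkp3 stand out.

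In 67NR, loss of either methyltransferase came with lower RNA of nearly the whole module. In Kmt2c KO cells 36 of the 39 tested genes fell and 0 rose, against 17.4% of all 13665 tested genes called lower and 17.9% called higher. In Kmt2d KO cells 26 of 39 fell and 0 rose, against backgrounds of 11.6% and 13.9%. The same backgrounds apply to the 67NR counts by role and by marker list below. Over the 39 genes the median log2 fold change was -2.11 for Kmt2c KO and -1.21 for Kmt2d KO, beside -0.02 over all genes in each comparison. With the replicate number as a block, 36 and 34 fell, where 19.9% and 15.4% of all genes did. No gene of the module rose at an unadjusted p under 0.05 in edgeR or was called higher by DESeq2 in either comparison. Both knockouts were compared with the same 3 WT libraries. The 3 genes not called in Kmt2c KO cells were Cldn1, Tjp1 and Llgl2.

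Taken as a share of the WT mean, the level of the 39 genes in Kmt2c KO cells ran from 8.74% (Cldn6) to 111% (Cldn1) with a median of 21.9%, and 23 genes were under 25%. In Kmt2d KO cells the shares ran from 8.47% (Ap1m2) to 98.3% (Tjp1) with a median of 41%, and 5 genes were under 25%. The 3 Kmt2c KO libraries were all below the 3 WT libraries for 37 of 39 genes, where 26.5% of all tested genes showed this. For Kmt2d KO cells it was 30 of 39, against 21.5%. These are bulk samples of edited pools, in which fewer cells with epithelial RNA and less of that RNA per cell cannot be told apart.

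**Figure D2:**
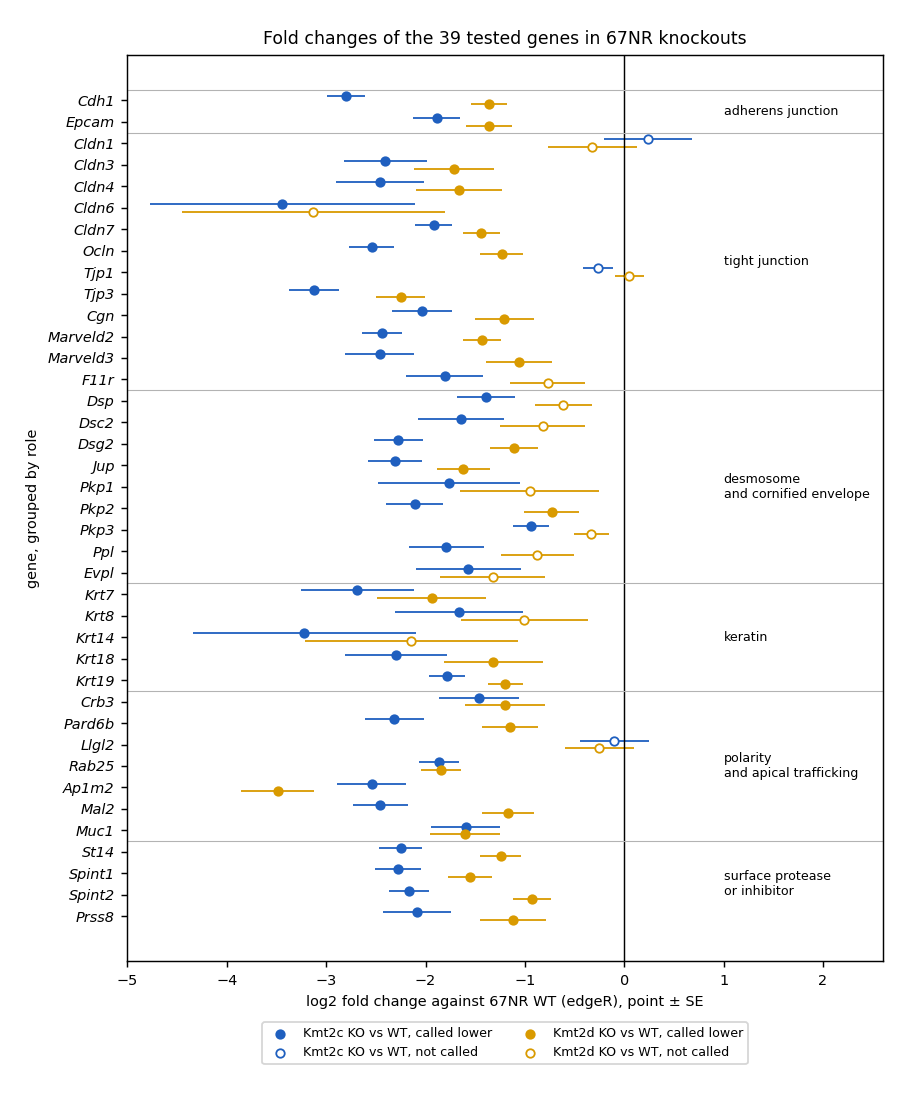
Log2 fold changes (horizontal axis, point ± SE, edgeR) of the 39 tested genes against 67NR WT, by role, with Kmt2c KO points in blue and those of Kmt2d KO in yellow, with filled points called lower and open points not called. Nearly all points lie left of 0, with medians of -2.11 and -1.21, and Cldn1, Tjp1 and Llgl2 lie near 0 in both.

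Promoter sequences are shown for the genes called lower in both 67NR knockouts with the smallest p-values (taking the larger of the 2 p-values of each gene). The windows come from RefSeq (GRCm38.p6) and span 250 bases before to 50 bases after a start, and 26 of the 41 genes had one. The first 5 genes by this rule were Tjp3, Rab25, Cldn7, Marveld2 and Cdh1, and Cdh1 had no window. Ap1m2, Krt8 and Krt18 were added after their values were seen, Ap1m2 for its number of motif matches and the keratins because their levels separate in 168FARN. Where a gene had more than 1 start, the window with the most matches is printed, or the first by coordinate. By exact match to mm9, the windows are Tjp3 at chr10:80753963-80754262 (minus strand), Rab25 at chr3:88352152-88352451 (minus), Cldn7 at chr11:69778673-69778972 (plus), Marveld2 at chr13:101386850-101387149 (minus), Ap1m2 at chr9:21116728-21117027 (minus), Krt8 at chr15:101834724-101835023 (minus) and Krt18 at chr15:101858397-101858696 (plus). Capitals mark the E-box CACCTG, or CAGGTG where it lies on the other strand.
Tjp3: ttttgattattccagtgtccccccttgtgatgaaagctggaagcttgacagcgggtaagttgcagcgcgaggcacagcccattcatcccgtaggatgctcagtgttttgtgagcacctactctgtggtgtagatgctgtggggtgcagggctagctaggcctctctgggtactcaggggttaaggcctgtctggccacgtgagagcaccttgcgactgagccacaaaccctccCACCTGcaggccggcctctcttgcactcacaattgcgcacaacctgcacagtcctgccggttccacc
Rab25: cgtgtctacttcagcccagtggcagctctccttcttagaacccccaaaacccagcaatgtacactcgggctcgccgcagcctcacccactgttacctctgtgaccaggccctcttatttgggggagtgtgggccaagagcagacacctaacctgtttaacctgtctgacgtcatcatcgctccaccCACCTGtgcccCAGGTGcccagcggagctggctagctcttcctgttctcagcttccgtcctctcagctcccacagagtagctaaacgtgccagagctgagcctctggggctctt
Cldn7: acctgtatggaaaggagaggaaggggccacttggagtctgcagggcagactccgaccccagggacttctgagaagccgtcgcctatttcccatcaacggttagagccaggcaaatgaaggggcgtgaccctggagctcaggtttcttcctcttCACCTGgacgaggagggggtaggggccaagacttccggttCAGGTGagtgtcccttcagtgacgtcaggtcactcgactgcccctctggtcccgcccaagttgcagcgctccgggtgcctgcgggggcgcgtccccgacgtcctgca
Marveld2: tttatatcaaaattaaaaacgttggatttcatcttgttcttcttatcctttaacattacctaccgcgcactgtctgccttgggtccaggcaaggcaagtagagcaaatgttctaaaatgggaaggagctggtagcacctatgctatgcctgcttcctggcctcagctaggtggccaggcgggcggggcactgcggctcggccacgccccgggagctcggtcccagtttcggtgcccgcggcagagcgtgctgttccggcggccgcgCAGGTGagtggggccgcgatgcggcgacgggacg
Ap1m2: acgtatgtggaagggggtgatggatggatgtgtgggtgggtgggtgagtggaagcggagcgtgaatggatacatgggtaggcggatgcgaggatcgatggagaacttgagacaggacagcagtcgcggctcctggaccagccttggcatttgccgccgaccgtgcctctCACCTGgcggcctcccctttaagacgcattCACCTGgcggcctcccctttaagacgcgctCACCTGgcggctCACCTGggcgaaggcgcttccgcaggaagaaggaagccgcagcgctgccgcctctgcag
Krt8: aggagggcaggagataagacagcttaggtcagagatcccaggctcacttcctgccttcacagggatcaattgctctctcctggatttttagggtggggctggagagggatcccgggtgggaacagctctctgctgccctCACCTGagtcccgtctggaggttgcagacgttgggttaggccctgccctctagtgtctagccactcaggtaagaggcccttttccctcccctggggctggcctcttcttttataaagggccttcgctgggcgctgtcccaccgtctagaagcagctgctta
Krt18: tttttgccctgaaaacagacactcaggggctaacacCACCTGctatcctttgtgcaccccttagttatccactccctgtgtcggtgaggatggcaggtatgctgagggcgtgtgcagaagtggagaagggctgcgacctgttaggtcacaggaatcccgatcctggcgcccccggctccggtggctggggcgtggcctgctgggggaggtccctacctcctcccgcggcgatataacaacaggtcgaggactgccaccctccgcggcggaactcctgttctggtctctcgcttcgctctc

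The Rab25 window holds the E-box at positions -64 and -53 from the start, the printed Cldn7 window at -97 and -57, and the printed Tjp3 window at -17. The other Cldn7 window, at chr11:69778031-69778330 (plus), spans the start of the mm9 gene model and holds 0 matches. In Marveld2 the match lies after the start. Ap1m2 has 4 matches, at -81, -51, -21 and -9. The E-box CACCTG, searched on both strands, was present in a window of 20 of the 26 genes (76.9%) and in 22.6% of all 27025 genes with a window. In 17 of the 20 a match lay before the start. AACCGG, the core of the Grainyhead motif (CCGGTT on the other strand), was found in 5 of 26 genes (19.2%) beside 7.7% of all genes, and the E-box CACGTG, which reads the same on both strands and differs from CACCTG, so that no match counts for both, in 5 of 26 beside 8.1%. The windows of the module had a median GC content of 60.7%, beside 52.7% for all windows, and the part of base composition in these shares was not tested. A match describes the letters of the window, not bound sites.

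Both tested adherens junction genes fell in both knockouts. Cdh1, which encodes E-cadherin, stood at 502, 516 and 458 CPM in 67NR WT, at 74.4, 72.3 and 53.1 CPM after Kmt2c loss and at 204, 189 and 151 CPM after Kmt2d loss. The 3 groups do not overlap, with WT highest and Kmt2c KO lowest. Its log2 fold change was -2.80 ± 0.19 (SE, edgeR, adjusted p = 1.1e-05) in Kmt2c KO and -1.36 ± 0.18 (adjusted p = 0.00085) in Kmt2d KO cells. Epcam, a homophilic adhesion molecule of simple epithelia, stood at 519, 575 and 669 CPM in WT, 134, 143 and 173 CPM after Kmt2c loss and 182, 169 and 300 CPM after Kmt2d loss. Both knockouts lie below WT for Epcam, and they overlap each other. Cdh3, which encodes P-cadherin and lies 46.4 kb from Cdh1 on chromosome 8, was at 0.147 CPM or less in all 18 libraries and was not tested.

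Among the claudins, which seal the tight junction, Cldn4 had the highest level per length in 67NR WT, at 253 ± 25.7 RPKM (SD, n = 3), followed by Cldn3 at 66.5 ± 41.4 and Cldn7 at 36.9 ± 3.25 RPKM. The spread of Cldn3 covers the level of Cldn7. Cldn4 stood at 474, 405 and 493 CPM in WT, 107, 89.1 and 39.4 CPM after Kmt2c loss and 161, 182 and 66.5 CPM after Kmt2d loss. Cldn3 read 65, 43.5 and 143 CPM in WT, 19.3, 14 and 11.4 CPM after Kmt2c loss and 21.9, 28.2 and 22.5 CPM after Kmt2d loss. In Cldn7 the values were 74.9, 63.8 and 74.3 CPM, then 21.5, 17.8 and 13.8 CPM, then 25.9, 25.8 and 22.7 CPM. All 3 claudins were called lower in both knockouts, and in each the KO libraries lie below every WT library.

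The other claudins were low in 67NR. Cldn1 stood at 1.75, 1.06 and 0.735 CPM in WT, 1.41, 1.62 and 0.916 CPM after Kmt2c loss and 0.996, 0.607 and 1.1 CPM after Kmt2d loss, with all groups overlapping. Cldn6, a claudin of embryonic epithelia, read 0.307, 0.235 and 3.1 CPM in WT and 0.251 CPM or less in each knockout library. It was called lower in Kmt2c KO cells (log2 fold change -3.44 ± 1.33, edgeR, adjusted p = 0.075), and it lost that call in 4 of the 6 fits that leave out a library of the comparison, among them the fit without WT replicate 3. In Kmt2d KO cells it missed the threshold (-3.13 ± 1.32, adjusted p = 0.13), and it passed with the replicate block (adjusted p = 0.018).

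Occludin and the zonula occludens scaffolds separated. Ocln stood at 85.4, 96.6 and 70.9 CPM in WT, 14.7, 16.5 and 9.72 CPM after Kmt2c loss and 36.3, 35.5 and 29.9 CPM after Kmt2d loss, with no overlap between the 3 groups. Marveld2, which encodes the tricellular junction protein tricellulin and lies 43.2 kb from Ocln on chromosome 13, read 33.1, 36.5 and 47.8 CPM, then 5.87, 8.01 and 6.53 CPM, then 13.5, 13.9 and 14 CPM, again without overlap. Tjp3, an epithelial scaffold, went from 18.5 to 27.4 CPM in WT to 1.97 to 3.03 CPM after Kmt2c loss and 3.93 to 5.12 CPM after Kmt2d loss. Its reads may include some from Apba3 on the opposite strand, since no source used here says whether strand was used in counting. The related scaffold Tjp1 read 266, 297 and 243 CPM in WT, 184, 210 and 239 CPM after Kmt2c loss and 250, 253 and 289 CPM after Kmt2d loss, with log2 differences of -0.26 ± 0.15 (edgeR, adjusted p = 0.21) and 0.05 ± 0.15 (adjusted p = 0.85).

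The remaining tight junction genes were Cgn, Marveld3 and F11r. Cgn, which encodes cingulin, fell to 11.1 to 22.5 CPM after Kmt2c loss and 25.6 to 33.1 CPM after Kmt2d loss from 56.9 to 94.8 CPM in WT. Marveld3 was called lower in both (-2.46 ± 0.35 and -1.06 ± 0.33, edgeR, adjusted p = 0.00064 and 0.047), and leaving out a library ended the Kmt2d KO call in 3 of 6 fits. F11r, which encodes the junctional adhesion molecule JAM-A, stood at 218, 204 and 183 CPM in WT, 71.6, 66.5 and 25 CPM after Kmt2c loss and 124, 138 and 73.9 CPM after Kmt2d loss. Its groups do not overlap WT, yet in Kmt2d KO cells F11r missed the threshold (-0.77 ± 0.38, adjusted p = 0.18), and it passed with the replicate block (adjusted p = 0.0096). Of the 12 tight junction genes, 10 fell with loss of Kmt2c and 8 with loss of Kmt2d.

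All 9 desmosome and cornified envelope genes fell in Kmt2c KO cells, and 3 of 9 (Dsg2, Jup and Pkp2) fell in Kmt2d KO cells, or 7 with the replicate block. Dsg2, a desmosomal cadherin, read 102, 110 and 109 CPM in WT, 24.6, 23.8 and 14.1 CPM after Kmt2c loss and 52.8, 51.9 and 36.4 CPM after Kmt2d loss. Jup, the plakoglobin that serves both adherens junctions and desmosomes, read 86.2, 65.4 and 129 CPM, then 21.3, 14 and 18.2 CPM, then 25.5, 28.2 and 32.9 CPM. Both genes have knockout levels below every WT library, and the knockouts do not overlap each other.

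Dsp, the desmoplakin that ties desmosomes to keratin, stood at 80.6, 82.9 and 69.6 CPM in WT, 37.5, 30.6 and 15.6 CPM after Kmt2c loss and 54.8, 48.4 and 40.7 CPM after Kmt2d loss. The Kmt2d KO difference of -0.62 ± 0.29 missed the threshold (edgeR, adjusted p = 0.16) and passed with the block (adjusted p = 0.016). Gm10129 overlaps Dsp on the opposite strand, so its count carries the same uncertainty as that of Tjp3. The plakophilin Pkp2 read 49.9, 53.2 and 85.8 CPM in WT, 16, 13.7 and 11.6 CPM after Kmt2c loss and 44.2, 38.3 and 25.2 CPM after Kmt2d loss, so its Kmt2d KO level lies just under WT. Its call in Kmt2d KO cells (-0.73 ± 0.28, adjusted p = 0.091) was lost in 4 of 6 fits that leave out a library, those without replicate 2 or 3 of either group. Pkp3 showed the smallest fall of the called genes in Kmt2c KO cells, at -0.94 ± 0.18 on the log2 scale, with 40.3, 33.8 and 44.7 CPM in WT, 23.1, 17.9 and 17.5 CPM after Kmt2c loss and 26.5, 30.1 and 33 CPM after Kmt2d loss, where it missed the threshold. Pkp1, the desmosomal cadherin gene Dsc2, and Ppl and Evpl, which encode plakins of the cornified envelope, were called in Kmt2c KO cells, with log2 fold changes from -1.57 to -1.79. Leaving out a library ended the Pkp1 call in 4 of 6 fits, the one without WT replicate 3 included, and the Evpl call in 2 of 6. In Kmt2d KO cells these 4 missed the threshold at -0.82 to -1.32, and Dsc2, Ppl and Evpl passed it with the block.

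Per length, Krt18 had the highest mean level of the module in 67NR WT, at 661 ± 282 RPKM. Epcam followed at 288 ± 37 RPKM, whose spread overlaps that of Krt7 at 259 ± 64.1 and Krt8 at 246 ± 160 RPKM. Krt19 stood at 73.3 ± 9.34 and Krt14 at 5.5 ± 6.61 RPKM. Krt5 had 0 reads in all 18 libraries. In Kmt2c KO cells 5 of 5 tested keratins fell, and in Kmt2d KO cells 3 of 5 (Krt7, Krt18 and Krt19), or 5 of 5 with the replicate block.

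Krt7, a type II keratin of simple epithelia, stood at 1043, 881 and 1418 CPM in WT, 123, 107 and 260 CPM after Kmt2c loss and 145, 147 and 538 CPM after Kmt2d loss. Krt8, another type II keratin of simple epithelia, read 290, 263 and 777 CPM, then 101, 77.6 and 218 CPM, then 115, 107 and 408 CPM. Krt18, the type I keratin that pairs with Krt8, read 757, 643 and 1377 CPM, then 141, 110 and 282 CPM, then 228, 226 and 607 CPM. In each of these genes replicate 3 is the highest library of its group, and for Krt8 the Kmt2d KO replicate 3 lies above WT replicates 1 and 2. The call for Krt8 in Kmt2c KO cells (-1.66 ± 0.65, edgeR, adjusted p = 0.077) was lost in 3 of 6 fits that leave out a library, and with the block the difference was -1.61 with an adjusted p of 3.4e-06. The Krt18 call in Kmt2d KO cells (-1.32 ± 0.50, adjusted p = 0.091) was lost in 5 of 6 such fits, holding only without Kmt2d KO replicate 3.

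Krt14, a basal keratin, was low, at 3, 2.72 and 22.3 CPM in WT, 0.313, 0.504 and 2.09 CPM after Kmt2c loss and 1.01, 0.699 and 4.37 CPM after Kmt2d loss. Krt19, a small type I keratin, read 126, 98.8 and 122 CPM, then 33.8, 29.2 and 32.2 CPM, then 43.4, 41 and 59 CPM. Its groups do not overlap. Its log2 fold changes were -1.78 ± 0.18 (edgeR, adjusted p = 8.9e-05) in Kmt2c KO and -1.20 ± 0.18 (adjusted p = 0.0014) in Kmt2d KO cells.

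Within the module, the summed RPKM of the type II keratins (Krt5, Krt7 and Krt8) was measured against that of the type I keratins (Krt14, Krt18 and Krt19). The ratio was 0.648 to 0.708 in the 67NR WT libraries, 0.693 to 0.813 in Kmt2c KO and 0.499 to 0.742 in Kmt2d KO libraries. The 3 ranges overlap.

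**Figure D3:**
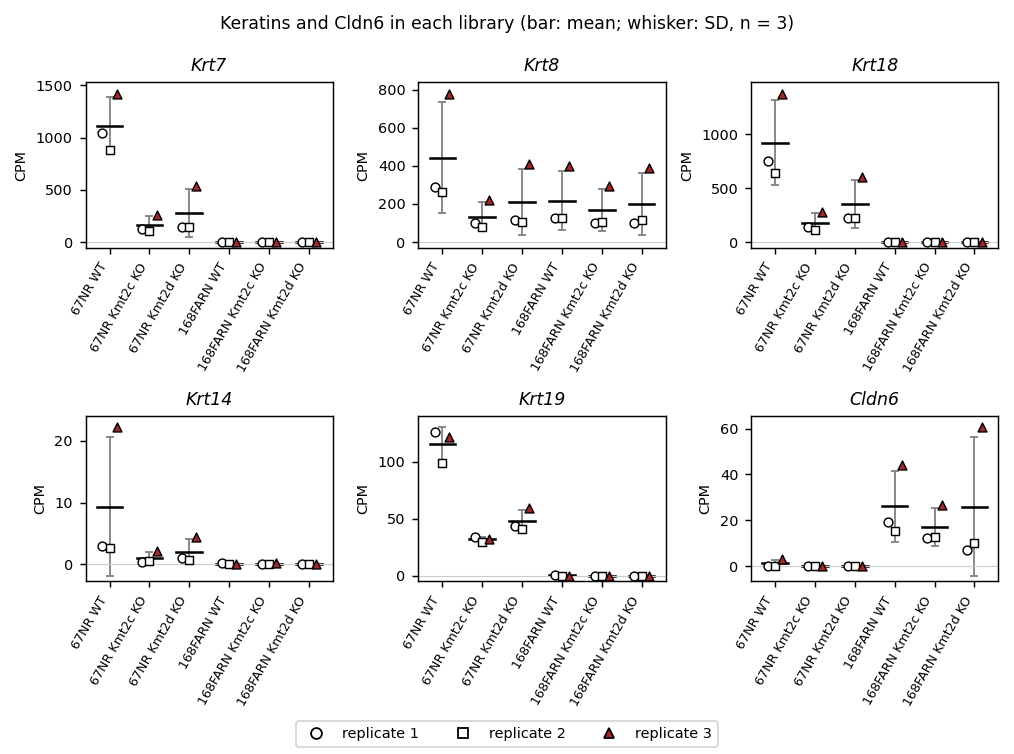
CPM (vertical axis, linear) of 5 keratins and Cldn6 in the 6 groups, with 1 symbol per library, the mean as a bar and the SD as a whisker (n = 3). Replicate 3 (red triangles) is the highest Krt8 library in all 6 groups, and 168FARN shows Krt8 and Cldn6 but next to no Krt7, Krt18 or Krt19.

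Replicate 3 stood apart from replicates 1 and 2. In 67NR, of 38 genes with at least 10 counts in all 9 libraries, 8 were higher in replicate 3 than in replicates 1 and 2 in all 3 groups (Epcam, Evpl, Krt7, Krt8, Krt14, Krt18, Llgl2 and Spint1), and 9 were lower (Cdh1, Ocln, Dsp, Dsc2, Crb3, Pard6b, St14, Mal2 and F11r). Replicate 3 also stood apart over all tested genes, and the share of all genes with such a pattern was not counted. These counts therefore do not set the module apart. Replicate 3 carried 2.44 to 3.67 times the Krt8 level of the mean of replicates 1 and 2, and 5.10 to 7.80 times the Krt14 level. For Cdh1 the factor was 0.724 to 0.900. Fitted on replicates 1 and 2 only, an alternative chosen after the data were seen, 34 genes fell with loss of Kmt2c and 31 with loss of Kmt2d, and 0 rose, where 44.2% and 35.9% of all 13851 genes were called in either direction.

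Of the 7 polarity and apical trafficking genes, 6 fell in each knockout and Llgl2, which marks the basolateral side, did not (-0.10 ± 0.35 and -0.25 ± 0.35, edgeR, adjusted p = 0.86 and 0.67). Rab25, a GTPase of apical recycling, stood at 39.3, 34.3 and 34.3 CPM in WT, 11.2, 9.06 and 7.7 CPM after Kmt2c loss and 8.04, 10.9 and 9.44 CPM after Kmt2d loss. Pard6b, a subunit of the apical Par complex, read 73.4, 75 and 49.4 CPM, then 15.5, 13.8 and 8.08 CPM, then 31, 31.8 and 21.6 CPM. Mal2, a transcytosis protein, read 253, 298 and 164 CPM, then 40.9, 47.5 and 34.6 CPM, then 119, 107 and 74.2 CPM. All 3 genes have both knockouts below WT, and the knockouts overlap for Rab25 alone.

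Ap1m2, the clathrin adaptor subunit of polarized epithelia, was the gene with the largest fall in Kmt2d KO cells, at -3.49 ± 0.37 (edgeR, adjusted p = 0.00019), from 5.63 to 7.1 CPM in WT to 0.369 to 0.703 CPM, and in Kmt2c KO cells it read 0.835 to 1.46 CPM. Muc1, an apical mucin, stood at 3.23, 3.11 and 2.25 CPM in WT, 1.1, 0.825 and 0.751 CPM after Kmt2c loss and 0.664, 0.865 and 1.15 CPM after Kmt2d loss. Crb3, of the Crumbs complex, was called lower in both, and its call in Kmt2d KO cells (-1.20 ± 0.40, adjusted p = 0.06) was lost in 5 of 6 fits that leave out a library.

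The 4 surface protease genes fell in both knockouts. St14, the membrane serine protease matriptase, stood at 178, 157 and 157 CPM in WT, 40.2, 30.3 and 26.8 CPM after Kmt2c loss and 69.2, 75.3 and 51.6 CPM after Kmt2d loss. Spint1, a Kunitz-type inhibitor of matriptase, read 75.7, 72.4 and 82.2 CPM, then 15.1, 12.5 and 17.1 CPM, then 20.1, 20.4 and 34.1 CPM. The related inhibitor Spint2 read 304, 271 and 358 CPM, then 78.6, 66.3 and 50.7 CPM, then 144, 172 and 148 CPM. The protease and its inhibitors thus all lie below WT in every knockout library, at 19.4% to 22.1% of the WT mean in Kmt2c KO cells for the 4 genes and at 32.4% to 49.7% in Kmt2d KO cells. Prss8, the protease prostasin, was called lower in both and overlaps Myst1 on the opposite strand.

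Between the knockouts, the Kmt2c KO cells had the lower levels. The pools were not edited to the same extent. The paper reports reduced protein in the knockout cells, but a smaller share of mutant reads for Kmt2c than for Kmt2d in this line. The part of unequal editing in the differences between the knockouts was not tested. Of 39 genes, 8 were called lower with Kmt2c lost than with Kmt2d lost and 0 higher, where 1.28% of all 13665 genes were called lower and 0.132% higher. These were Cdh1 (-1.44 ± 0.18), Ocln (-1.31 ± 0.22), Marveld2 (-1.01 ± 0.19), Dsg2 (-1.17 ± 0.24), Pkp2 (-1.38 ± 0.28), St14 (-1.01 ± 0.20), Spint2 (-1.24 ± 0.19) and Mal2 (-1.28 ± 0.26), with adjusted p-values from 0.013 to 0.076 in edgeR. The median difference over the 39 genes was -0.79, beside 0.01 over all genes. For 23 genes all 3 Kmt2c KO libraries lay below all 3 Kmt2d KO libraries, where 10.2% of all genes did, and for 1, Ap1m2, all 3 lay above, as for 9.4% of all genes. At an unadjusted p under 0.05 edgeR gave 22 genes lower and 1 higher. The share of all genes at this limit was not worked out, so this count is a description only. DESeq2 called 12 lower and 0 higher, beside 4.37% of all genes in either direction.

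This count rests on few libraries. With the replicate block it was 20, all lower in Kmt2c KO cells, where 5.7% of all genes were, and without 1 library it ranged from 1 to 9. It was 1 without Kmt2c KO replicate 2 or without Kmt2d KO replicate 2, 2 without Kmt2d KO replicate 1, and 3 without Kmt2c KO replicate 1 or 3. Cdh1 kept its call in all 6 of these fits. On replicates 1 and 2 only, 18 genes were called lower and 2 higher in Kmt2c KO cells, where 12.6% of all genes were called in either direction. Rab25 (-0.01 ± 0.20), Muc1 (0.01 ± 0.35) and Ap1m2 (0.95 ± 0.35) were not called (adjusted p = 1, 1 and 0.35), while Mal2 of the same role was called, and Pard6b (-1.17 ± 0.28, adjusted p = 0.13) was called with the block.

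**Figure D4:**
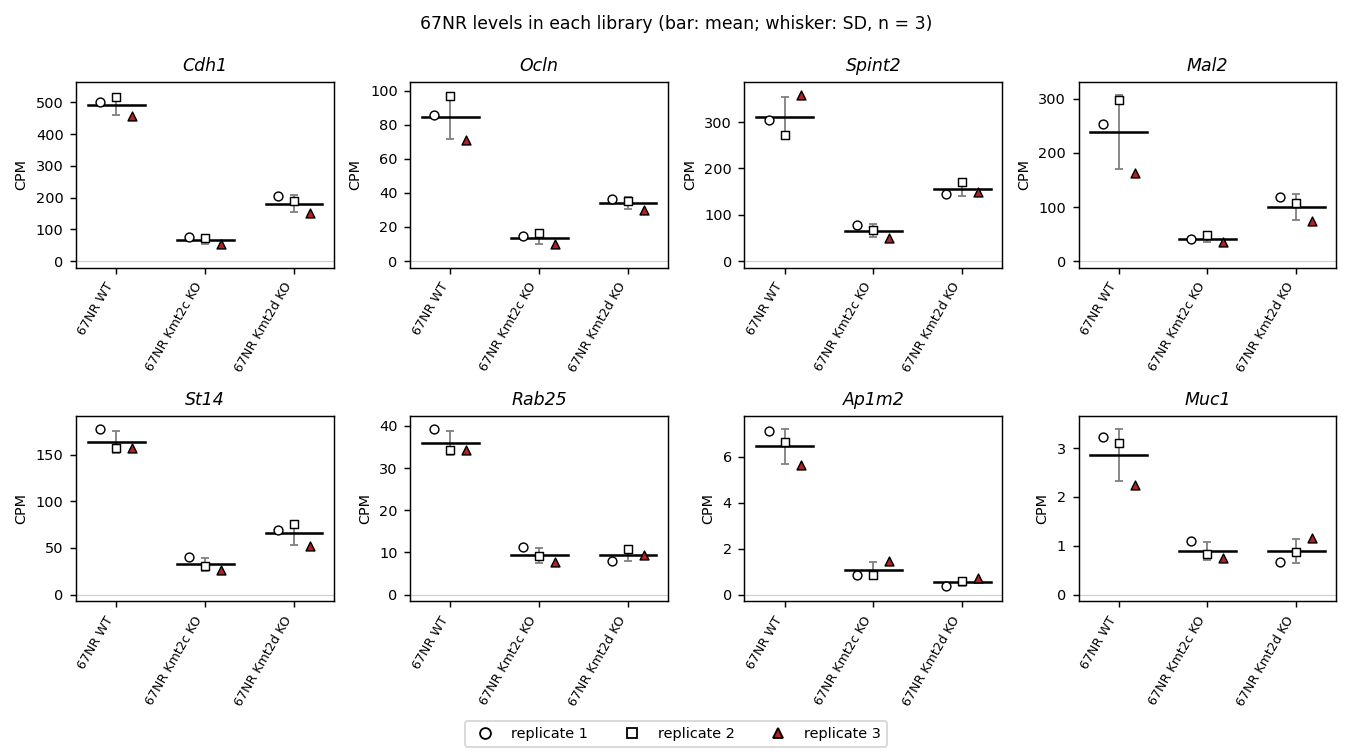
CPM (vertical axis, linear) of 8 genes in the 67NR groups, with 1 symbol per library, the mean as a bar and the SD as a whisker (n = 3). Cdh1, Ocln, Spint2, Mal2 and St14 are lowest in Kmt2c KO cells, while Rab25 and Muc1 stand at the same height in both knockouts and Ap1m2 is lowest in Kmt2d KO cells.

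Other genes of the same pathways were read from a list that shares no gene with the module and was also chosen with earlier results known. Of 39 tested genes of the list (45 in the files), 28 fell and 2 rose in Kmt2c KO cells, and 20 fell and 1 rose in Kmt2d KO cells, with median log2 fold changes of -1.56 and -0.95. Of all genes, 17.4% fell and 17.9% rose in Kmt2c KO cells, and 11.6% and 13.9% in Kmt2d KO cells. The smallest p-values in Kmt2c KO cells belonged to Perp, a desmosomal protein (-2.32 ± 0.16), Itgb6, an epithelial integrin (-4.36 ± 0.32), Grhl2, a Grainyhead factor that maintains epithelia (-1.71 ± 0.15), and Elf3, an epithelial ETS factor (-2.43 ± 0.23). In Kmt2d KO cells they belonged to Itgb6 (-2.51 ± 0.29), Ehf (-3.46 ± 0.41), Cldn23 (-2.11 ± 0.26) and Ctnnb1, the cadherin partner beta-catenin (-1.26 ± 0.18). Nectin1 (0.80 ± 0.21) and Magi1 (0.85 ± 0.22) were the 2 that rose in Kmt2c KO cells, and Magi1 (0.68 ± 0.22) rose in Kmt2d KO cells.

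Among 15 regulators of the epithelial-mesenchymal transition, 6 rose and 5 fell in Kmt2c KO cells, where 17.9% of all genes rose and 17.4% fell. In Kmt2d KO cells 6 rose and 3 fell, beside 13.9% and 11.6% of all genes. The median log2 fold changes were 0.08 and -0.06. Zeb1, of the ZEB family, went from 5.17 ± 1.34 CPM (SD, n = 3) in 67NR WT to 70.9 ± 7.56 CPM after Kmt2c loss and 51 ± 3.1 CPM after Kmt2d loss (log2 fold changes 3.86 ± 0.22 and 3.38 ± 0.22, edgeR, adjusted p = 4.8e-06 and 1.6e-05). Snai2 went from 2.41 ± 0.48 to 40.9 ± 17.5 and 37.2 ± 2.31 CPM. Twist2 and Prrx1 rose in both as well. Foxc2, Tgfb2 and Snai3 fell in both knockouts, and Tgfbr1 and Tgfbr2 fell in Kmt2c KO cells. The binding of these regulators to the windows printed above and their part in the fall of the module were not tested.

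Marker lists of other cell types moved with these genes. Of 17 tested mesenchymal or fibroblast markers (18 in the list, 6 of them also among the regulators above), 11 rose and 1, Fn1, fell in each knockout. Of all genes, 17.9% rose and 17.4% fell in Kmt2c KO cells, and 13.9% and 11.6% in Kmt2d KO cells. The summed level of these markers was 3679 to 6466 CPM in 67NR WT, 5329 to 7355 CPM after Kmt2c loss and 4820 to 6948 CPM in Kmt2d KO libraries. Fn1 and Vim carry most of this sum and moved in opposite directions, Fn1 from a mean of 4444 CPM to 1068 and 1427 CPM and Vim from 615 CPM to 3144 and 2665 CPM. The 8 leukocyte markers summed to 38.5 to 96.1 CPM in WT, nearly all of it Cd74, and to 9.51 to 22.8 and 13.6 to 48.3 CPM in the knockouts, with Ptprc at 0.1 CPM or less. Lyz2 of this list rose, from 0.320 ± 0.226 CPM in WT to 2.21 ± 1.57 and 2.62 ± 0.573 CPM (SD, n = 3). The 6 endothelial markers summed to 0.505 to 2.51 CPM over the 9 libraries, with Emcn at 0, and 2 of 3 tested, Cdh5 and Vwf, rose in both knockouts, to means of 1.51 CPM or less. The basal mammary markers, 2 of them in the module, summed to 10.6 to 24.3 CPM in WT and 0.561 to 6.18 CPM in knockouts. For the luminal markers, 3 of them in the module, the sums were 1193 to 2619 CPM and 347 to 1262 CPM. In WT, Krt8, Krt18 and Krt19 averaged 443, 925 and 116 CPM of a mean luminal sum of 1725 CPM. Krt14 made up 9.34 CPM of a mean basal sum of 15.4 CPM. These sums thus largely restate keratins of the module. With Kmt2c lost, 6 of 7 tested luminal and 2 of 2 basal markers were called lower. With Kmt2d lost it was 2 of 7 (Krt18 and Krt19) and 0 of 2. The replicate block gave 5 of 7 and 2 of 2 there. The luminal marker Csn2 rose in both, from 0.0311 CPM to 0.862 and 1.51 CPM on average. The part of a changed mix of cells in the fall of the module was not tested.

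In 168FARN most of the module had few reads or none at every genotype. Of the 41 genes, 10 had 0 reads in all 9 libraries (Epcam, Cldn3, Cldn4, Cldn7, Dsc2, Dsg2, Krt5, Crb3, Ap1m2 and Mal2), which allows up to 0.011 CPM (3 reads over these libraries, counting error only). A further 22 had between 1 and 100 reads in all. Only Cldn6, Tjp1, Pkp3, Krt8, Pard6b and Llgl2 had a WT mean above 1 CPM, against 39 genes in 67NR WT. Cdh1 had 5 reads in the 9 libraries together. The epithelial markers Epcam, Cdh1 and Krt18 were thus at 0 or at trace level in this line, while Krt8 was not.

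Of the 39 genes that passed the filter over both lines, 26 did not pass it in 168FARN and entered through their 67NR level, which fixed their direction. Between the WT groups, 36 of the 39 were called higher in 67NR and 1, Cldn6, lower, beside 22.3% and 16.9% of 13882 genes, and this count is a description only. Epcam was at least 20422-fold, Cldn4 at least 15888-fold and Mal2 at least 8275-fold higher in 67NR WT, taking 3 reads over the 3 168FARN WT libraries as the limit. Tjp1 (0.41 ± 0.16, edgeR, adjusted p = 0.065) was under the fold threshold, and Krt8 (1.03 ± 0.72, adjusted p = 0.3) was called with the replicate block. The lines were deposited as separate count tables, so line and set of libraries cannot be told apart.

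Neighbouring genes differed within 168FARN. Krt8 read 127, 127 and 397 CPM in WT, 99.6, 108 and 293 CPM after Kmt2c loss and 98.7, 114 and 387 CPM after Kmt2d loss, while Krt18, which lies 23.9 kb away on chromosome 15 and whose promoter is printed above, read between 0 and 0.188 CPM in the 9 libraries. Per length, the type I keratins of the module (Krt14, Krt18 and Krt19) summed to 0.157 RPKM or less in each 168FARN library. Its type II keratins (Krt5, Krt7 and Krt8) summed to 54.7 to 220 RPKM, and keratins outside the module were not summed. In 67NR the same neighbours both stood at 263 CPM or more in each WT library. The Krt8 window and the Krt18 window each hold 1 CACCTG, at -111 and -214.

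Cldn6 had the highest level of the claudins per length in 168FARN WT, at 17.4 ± 10.3 RPKM (SD, n = 3). It stood at 19.5, 15.3 and 43.9 CPM in WT, 12.2, 12.6 and 26.9 CPM after Kmt2c loss and 6.93, 10.3 and 60.8 CPM after Kmt2d loss, all groups overlapping and replicate 3 highest in each. Its WT mean was 21.6 times that of 67NR WT, and Cldn3, Cldn4 and Cldn7 were at 0 beside it. Cldn1 read 0.0684, 0.0611 and 0.0946 CPM in WT, 0.596, 0.347 and 0.109 CPM after Kmt2c loss and 0.395, 0.501 and 0.565 CPM after Kmt2d loss, which is 74 reads over the 9 libraries.

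Loss of Kmt2c or Kmt2d in 168FARN gave 0 called genes among the 13 tested in edgeR, in each knockout against WT and between the knockouts, where of all 12253 genes 0.163%, 0.139% and 0.122% were called lower and 0.196%, 0.147% and 0.131% higher. At an unadjusted p under 0.05 edgeR gave 6, 4 and 1 genes. The share of all genes at this limit was not worked out, so these counts are a description only. DESeq2 called 5, 2 and 1, beside 2.35%, 2.02% and 1.92% of all genes in either direction. With the replicate block, 6 genes were called in Kmt2c KO cells, where Pkp3 rose and Ocln, Pkp2, Ppl, Krt7 and Pard6b fell, against 3.66% of all genes called higher and 3.57% lower. In Kmt2d KO cells 4 were called, where Cldn1 and Pkp3 rose and Pkp2 and Krt7 fell, against 2.73% and 3.17%. Between the knockouts 1 was called, Pard6b, lower with Kmt2c lost, against 2.44% called lower.

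Among these, the plakophilin Pkp3 and Pard6b had reads enough to follow by library. Pkp3 read 13, 15.1 and 12.9 CPM in WT, 28.8, 34.3 and 18.6 CPM after Kmt2c loss and 19.2, 23.8 and 19.9 CPM after Kmt2d loss, so both knockouts lie above WT. Its log2 difference in Kmt2c KO cells was 1.00 ± 0.24 (edgeR, adjusted p = 0.3; with the block 0.96, adjusted p = 0.0021), and Pkp3 was called without Kmt2c KO replicate 3. Pard6b read 6.84, 7.36 and 8.16 CPM in WT, 3.74, 4.14 and 4.84 CPM after Kmt2c loss and 6.44, 8.23 and 6.48 CPM after Kmt2d loss, with Kmt2c KO below both other groups. Of the 13 genes, 4 were lower and 2 higher without overlap in Kmt2c KO cells, where 5.62% and 5.41% of all genes were, and 2 and 2 in Kmt2d KO cells, where 5.99% and 4.62% were.

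**Figure D5:**
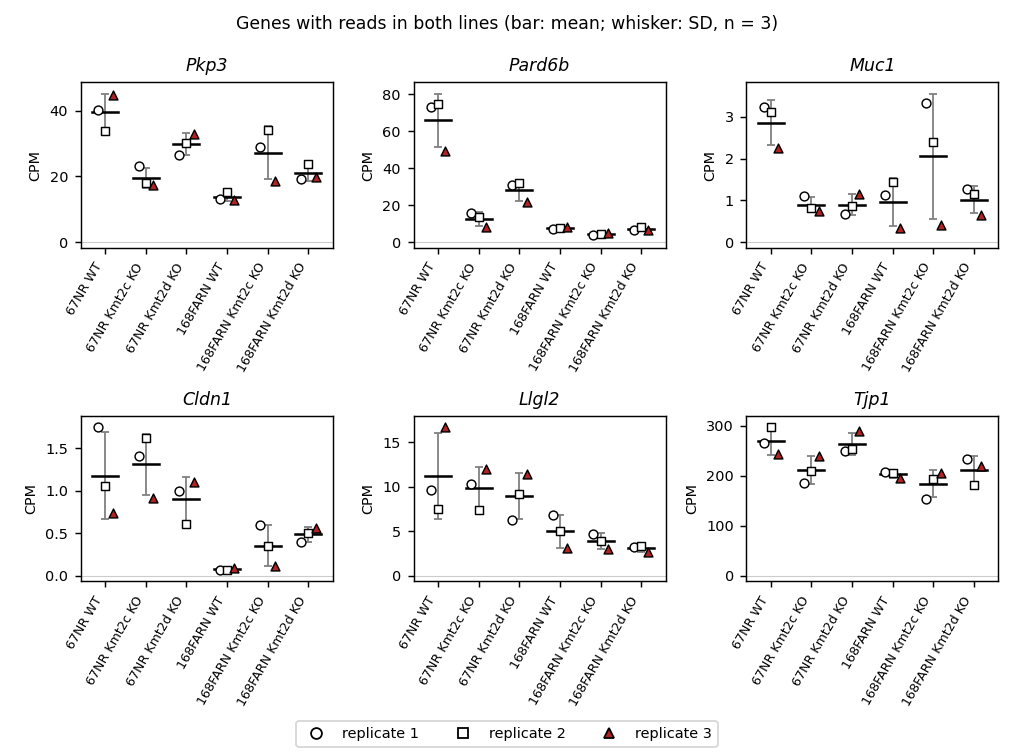
CPM (vertical axis, linear) in the 6 groups for 6 genes with reads in both lines, with 1 symbol per library, the mean as a bar and the SD as a whisker (n = 3). Pkp3 is lower in the 67NR knockouts and higher in the 168FARN knockouts than in WT of the same line, and Tjp1 stays between 154 and 297 CPM in all 18 libraries.

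Whether the knockout effect differed between the lines was tested as an interaction on all 18 libraries. For Kmt2c, 4 of 39 genes were called, all with a more negative effect in 67NR: Pkp3 (difference of log2 fold changes -2.01 ± 0.31, edgeR, adjusted p = 0.00032), Pard6b (-1.59 ± 0.36, adjusted p = 0.0075), Muc1 (-2.77 ± 0.88, adjusted p = 0.053) and St14 (-4.99 ± 1.64, adjusted p = 0.063), where 7.55% of 13882 genes were called in this direction and 8.49% in the other. For Kmt2d, 4 were called: Cldn1 (-3.03 ± 0.82, adjusted p = 0.033), Rab25 (-2.97 ± 0.86, adjusted p = 0.047), Pkp3 (-1.02 ± 0.30, adjusted p = 0.054) and Pard6b (-1.14 ± 0.35, adjusted p = 0.066), against 3.92% in this direction and 6.68% in the other. St14 had 13 reads over the 9 168FARN libraries, 8 of them in 1 Kmt2c KO library, and Rab25 had 38. Neither passed the filter in 168FARN, so both entered through their 67NR level and their fitted differences rest on few reads. With the replicate block 12 genes were called in each interaction, where 34.6% and 28.4% of all genes were called in either direction. All 12 had the more negative effect in 67NR for Kmt2c, and 11 did for Kmt2d, with Krt7 the other way. Among those called for Kmt2c, Cdh1, Marveld2, Marveld3, Krt14, F11r and St14 did not pass the filter in 168FARN. For Kmt2d the same held for Krt18, F11r, St14 and Rab25. These genes entered through their 67NR level, and the share of all genes by direction is not given here. The shared direction is thus a description only. For the 10 genes at 0 in 168FARN the interaction cannot be estimated, and the absence of a call for them says nothing on whether the lines differ. Muc1 read 1.13, 1.44 and 0.331 CPM in 168FARN WT, 3.34, 2.4 and 0.41 CPM after Kmt2c loss and 1.27, 1.14 and 0.641 CPM after Kmt2d loss, with all 3 groups overlapping.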

How the data were processed

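RNA-seq libraries of polyA RNA from 168FARN and 67NR cells were made by the authors with a strand-specific KAPA mRNA HyperPrep kit and aligned with STAR in the VIPER pipeline to mm9, and whole-number gene counts were deposited by the authors, 1 table per line. Whether the counting used strand is not given in the sources used here. The 41 genes and the other gene lists were chosen with earlier results of these data known. Counts were tested with edgeR 4.0.16 (limma 3.58.1, R 4.3.3): filterByExpr, TMM, robust quasi-likelihood fits on the 9 libraries of a line, or on all 18 for the interactions and the WT groups, with genotype groups as the only factor and Benjamini-Hochberg adjustment over all genes tested. The call thresholds were 0.1 on the adjusted p and 0.6 on the size of the log2 change. DESeq2 1.42.0 was an alternative. RPKM used the exon length of mm9 GENCODE models.

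The scripts were tested on simulated data. Counts per library ran from 14359760 to 79251530, and 3 counts were taken as the floor, 0.0288 CPM over the 168FARN WT libraries. Genes given in full were the cadherins, Epcam, the claudins, Ocln, Tjp1, F11r, Dsp, Jup, the keratins, Rab25, St14, Spint1 and those called between knockouts or in an interaction, and from other lists up to 4 per direction by p.

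Deviations of same-numbered libraries from their group means correlated with r of 0.650 to 0.897 for 168FARN and of 0.351 to 0.717 for 67NR, every pair above 0.1. Only replicate 3 separated from the other numbers, with negative r against replicates 1 and 2 of other groups. Replicates 1 and 2 were not told apart. In 67NR, Kmt2c KO replicate 1 had r of 0.523 with Kmt2d KO replicate 2 and 0.384 with Kmt2d KO replicate 1. In 168FARN, WT replicate 1 had r of 0.728 with Kmt2c KO replicate 2 and 0.723 with Kmt2c KO replicate 1. The study's own model used genotype only, so the replicate block was an alternative, beside other size factors, no filter, a stricter threshold, the 6 libraries compared, no Rn45s, replicates 1 and 2 only and leaving out each library. No sample or count column was left out.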

Additional observations from a re-analysis of the deposited data

Results flagged for a closer look

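8 differences between the lines passed the test of the interaction itself (67NR minus 168FARN, edgeR, log2 scale), 4 of 39 genes for each knockout. Of all 13882 genes, 16% were called for Kmt2c and 10.6% for Kmt2d in either direction, and 7.55% and 3.92% in the direction of these genes. The number of calls therefore does not set the module apart. For the Kmt2c KO effect these were Pkp3 at -2.01, Pard6b at -1.59, Muc1 at -2.77 and St14 at -4.99. For the Kmt2d KO effect they were Cldn1 at -3.03, Rab25 at -2.97, Pard6b at -1.14 and Pkp3 at -1.02. Of the 12 fits that leave out 1 library, the call was lost in 9 for Pard6b and 6 for Pkp3 under Kmt2d KO, in 7 for Muc1, 5 for Rab25, 4 for St14 and 1 for Cldn1. St14, with 13 reads over the 9 168FARN libraries, and Rab25, with 38, did not pass the filter on low counts in 168FARN and were tested only through their 67NR level, so their values do not show that the lines differ. Cldn1 had 8 reads over the 168FARN WT libraries, so its difference rests on few reads as well. The cause of these differences was not tested.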

How the results depend on the processing

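In 67NR the number of genes called lower against WT stayed between 31 and 36 for Kmt2c KO and between 21 and 34 for Kmt2d KO over all alternatives, and none was called higher. Other counts moved further. With the replicate block, which gives libraries of the same number a shared shift, 20 genes were called between the 67NR knockouts (main count 8), beside 7.29% of all genes. In the 168FARN comparisons of Kmt2c KO, Kmt2d KO and the knockouts with each other, 6, 4 and 1 were called (main counts 0), beside 7.23%, 5.9% and 5.33%. In each interaction 12 of 39 were called (main counts 4), where 34.6% and 28.4% of all genes were called. With DESeq2 the 168FARN counts were 5, 2 and 1, beside 2.35%, 2.02% and 1.92% of all genes. The interactions gave 9 for Kmt2c and 8 for Kmt2d, beside 20.5% and 14.4% of all genes. On replicates 1 and 2 only, chosen after the data were seen, 20 genes were called between the 67NR knockouts (18 lower and 2 higher in Kmt2c KO cells), beside 12.6% of all genes. In 168FARN 7, 6 and 3 were called, beside 14.5%, 11% and 9.29%. The interactions gave 13 and 12, beside 38% and 32.5% of all genes. An adjusted p under 0.05 with no fold change threshold left 3 between the 67NR knockouts and 2 in each interaction, beside 0.659%, 11.5% and 7.3% of all genes.

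Leaving out 1 library gave 1 to 9 calls between the 67NR knockouts, 0 to 1 for Kmt2c KO in 168FARN, 2 to 6 for the Kmt2c interaction and 1 to 4 for the Kmt2d interaction. No value changed its direction while called. The causes of these shifts were not tested. In 168FARN 22 of the 41 genes had 1 to 100 reads in all, so small changes of these genes were hardly detectable there. Larger ones were called with the replicate block for Krt7 and Pkp2 in both knockouts and for Cldn1 in Kmt2d KO cells, though not in the main fits. Krt7 had 58 reads over the WT libraries, 4 after Kmt2c loss and 0 after Kmt2d loss. For Pkp2 the reads were 65, 4 and 8, and for Cldn1 8, 35 and 31. In CPM, neither knockout overlapped WT for these genes. For Cldn1 the lowest Kmt2c KO library (0.109 CPM) lay just above the highest WT library (0.0946 CPM). Of all genes, 5.62% lay lower and 5.41% higher without overlap in Kmt2c KO cells, and 5.99% and 4.62% in Kmt2d KO cells. The interaction of genes at 0 could not be estimated.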
